A study of Mus musculus with 20 samples.

Results

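The liver transcriptomes of 5 MCAD-/- mice and 5 wild type mice were compared after an injection of lipopolysaccharide (LPS, the bacterial cell wall component that triggers innate immunity) followed by a fast of 12 h. These 10 mice are all the animals that carry both labels, out of 20 in the series. The other 10 were wild type or MCAD-/- mice, 5 of each, that received vehicle before the same fast. All 20 were male, on a mixed BL6/SV129 background and 50 to 60 days old. The LPS dose was 100 µg per 20 g body weight. How the mcad allele was made, and whether the genotypes were littermates, is not given in the sources used here, and every group was fasted, so no fed liver enters any value. The series is titled for the handling of carbohydrate by the liver when metabolic demand is high, and this comparison asks how the loss of the enzyme changes the liver when inflammation is added to the fast.

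Medium-chain acyl-CoA dehydrogenase (MCAD), encoded by Acadm, catalyses the first step of mitochondrial beta-oxidation for medium-chain acyl-CoAs. In the fasted liver, beta-oxidation supplies the acetyl-CoA for ketone bodies and the energy for gluconeogenesis, and the nuclear receptor PPARalpha induces many of its enzymes. People who lack MCAD can become hypoglycaemic and hypoketotic when a fast coincides with an infection. LPS signals through Toll-like receptor 4 to NF-kappaB and interferon pathways, and the liver answers by making acute phase proteins and by lowering many metabolic transcripts.

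Each mouse was measured on 1 array, and values are intensities in the arbitrary units of the deposited table. Between 30.27% and 32.36% of probe sets exceeded 16 units on each of the 20 arrays; 16 units is the floor under which a probe set is treated as too dim to order. Wild type LPS replicate 4 stood apart on RNA quality, with an actin 3' to 5' log2 ratio of 3.69 against 1.35 to 1.81 on the other 9 LPS arrays. MCAD-/- LPS replicate 3 was the most distant array of its group, with a standard deviation of the log2 difference to its group mates of 0.474 to 0.587. Where the call of a gene followed through the alternative fits changed without either mouse, that is stated. Not every gene in the text was followed in this way. Among the vehicle arrays, wild type replicate 3 had an actin ratio of 3.18, against 1.69 to 2.34 on the others. That array was kept in every vehicle difference and interaction. The series description calls the mice biological replicates. The limma p-values set each difference against the spread between mice within all 4 groups, vehicle mice included. No batch is given by the labels. In bulk liver, fewer cells of a type and less RNA per cell cannot be told apart.

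Acadm was the check of the genotype labels. It read 1842, 1883, 1663, 1450 and 2375 units in wild type replicates 1 to 5. In MCAD-/- replicates 1 to 5 it read 19.1, 56.0, 218, 37.8 and 14.3 units. The groups did not overlap, and replicate 3 was the highest of the MCAD-/- mice. The difference was -5.45 ± 0.57 (SE, n = 5 per group) on the log2 scale, a 43.6-fold lower level. The two-sided exact permutation test over all 252 regroupings gave p = 0.00794, the lowest value it can reach. Without MCAD-/- LPS replicate 3 the log2 difference was -6.04.

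Of 18193 genes with a probe set of a single symbol, 8774 exceeded 16 units on at least 5 of the 20 arrays and were tested. In MCAD-/- mice with LPS 1806 genes, 20.6% of those tested, passed an adjusted p of 0.05 in the limma model. There were 768 higher (8.75%) and 1038 lower (11.8%), while the median log2 change over all tested genes was -0.027 and its quartiles were -0.25 and 0.19. Of the 1806 genes 706 were under 1.5-fold, and the median size was 1.59-fold. At least 2-fold changes numbered 193 higher and 236 lower, and at least 4-fold changes 47 higher and 53 lower. In 997 genes, 11.4% of those tested, the change passed and all 5 mice of a genotype lay beyond all 5 of the other; 12.8% of tested genes had such separated groups whether or not they passed. With vehicle, where other mice were compared, 16.2% of genes passed between the genotypes. The interaction, which tests whether the genotype difference itself differs between LPS and vehicle, passed for 361 genes (4.11%), and 235 of these were among the 1806.

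**Figure D1:**
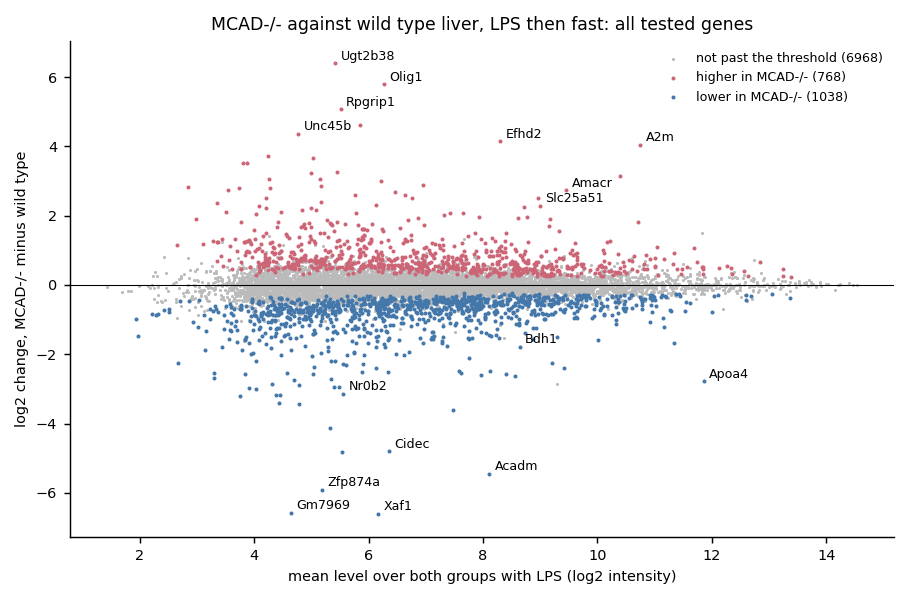
Each point is a tested gene; the x axis is its mean log2 intensity over both genotypes with LPS and the y axis its log2 change, MCAD-/- minus wild type (n = 5 mice each). Red points (768) were higher and blue points (1038) lower in MCAD-/- at an adjusted p under 0.05, and Xaf1 (-6.61), Acadm (-5.45), Olig1 (5.79) and A2m (4.04) lie far from the median of -0.027.

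Genes were grouped by function in lists. Each list reported in the text is described by the number of tested members past the threshold. The shares over all genes were 8.75% higher and 11.8% lower. The lists were not tested as sets.

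**Figure D2:**
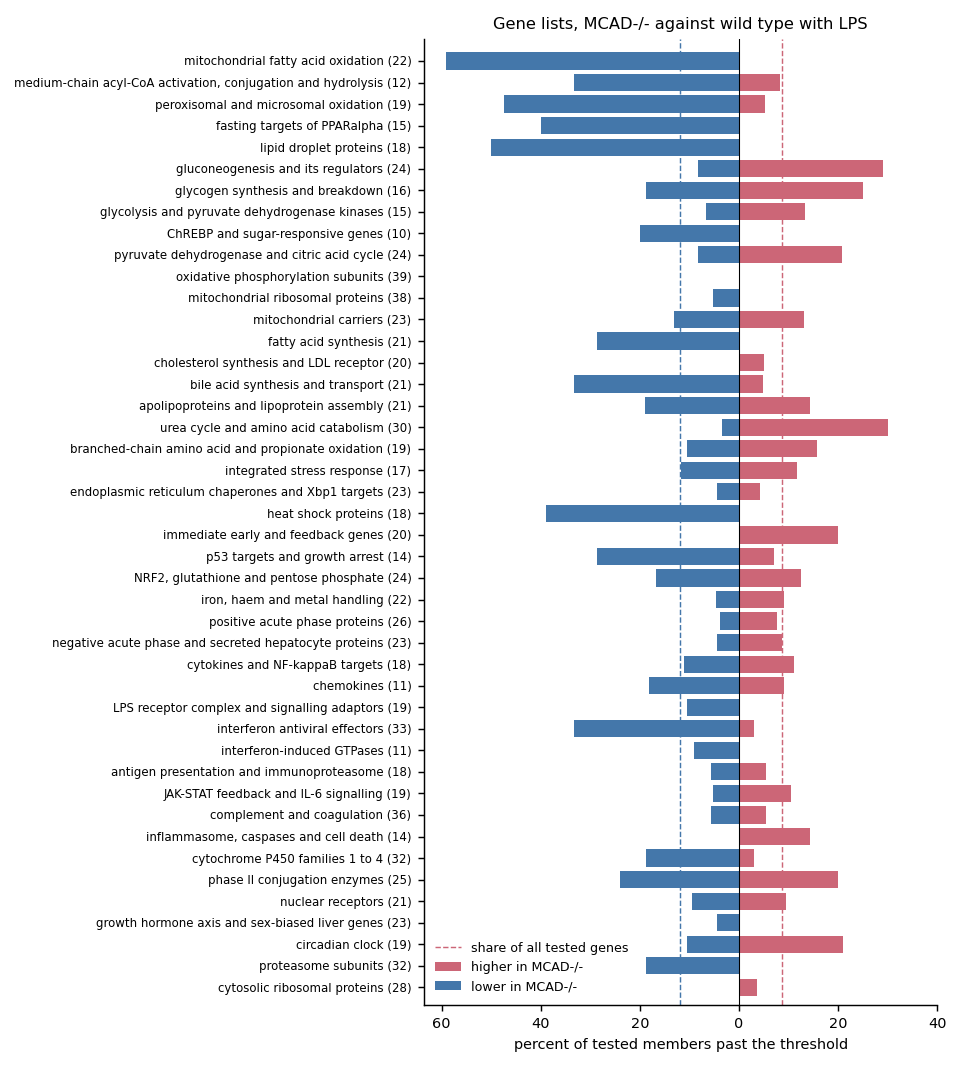
Bars give the percent of tested members of each gene list (number tested in parentheses, lists of at least 10) that were higher (red, right) or lower (blue, left) in MCAD-/- with LPS; dashed lines mark the shares over all 8774 tested genes, 8.75% and 11.8%. Mitochondrial fatty acid oxidation (59.1%) and lipid droplet proteins (50.0%) reach farthest to the lower side, and oxidative phosphorylation subunits have no bar.

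Several enzymes of fat oxidation other than the missing dehydrogenase fell in MCAD-/- liver. Of 22 tested genes of mitochondrial fatty acid oxidation, Acadm included, 13 fell and 9 did not pass, with a median log2 change of -0.38. The members that fell span the pathway: the carnitine shuttle (Cpt1a, Cpt2, Slc25a20), the other chain-length dehydrogenases (Acadvl, Acadl, Acads), the later steps and the electron acceptors (Etfb, Etfdh). Apart from Acadm their falls were under 2-fold. Decr1, the dienoyl-CoA reductase needed for unsaturated fatty acids, read 982, 1040, 923, 1318 and 1137 units in wild type and 683, 557, 559, 556 and 429 in MCAD-/- mice. Without overlap between the groups, Decr1 was 1.94-fold lower (log2 -0.96 ± 0.13, adjusted p = 1.56e-05). Eci1, an enoyl-CoA isomerase, was 1.72-fold lower without overlap (adjusted p = 0.000562). Hadh, the 3-hydroxyacyl-CoA dehydrogenase of shorter chains, was 1.59-fold lower (adjusted p = 0.00096), with MCAD-/- replicate 4 at 1602 units inside the wild type range of 1504 to 2289. Cpt1a, which admits long-chain fatty acids to mitochondria, was 1.41-fold lower (log2 -0.50 ± 0.17, adjusted p = 0.0391). That call ended when any of wild type replicates 1, 2, 3 or 5 or MCAD-/- replicates 2, 3 or 5 was left out (adjusted p 0.0535 to 0.12). The other tested probe sets of Cpt1a differed by -0.15 each (adjusted p over probe sets = 0.657 and 0.552). With the mean of the probe sets Cpt1a differed by -0.27 and did not pass (adjusted p = 0.204). The count of 13 fell to 7 without MCAD-/- LPS replicate 5 and to 6 in a fit of the LPS groups alone.

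A second list holds enzymes that activate, conjugate or hydrolyse medium-chain acyl groups. Of its 12 tested members 4 fell, 1 rose and 7 did not pass (median -0.39). Acsm5, a mitochondrial ligase that activates medium-chain acids, read 37.8 to 99.0 units (median 72.2) in wild type and 8.99 to 36.2 (median 12.0) in MCAD-/- mice. All MCAD-/- mice lay below all wild type mice, and the fold of 4.14 rests on values under the floor because the MCAD-/- mean was under 16 units (adjusted p = 9.96e-05). Glyat, which conjugates acyl-CoAs to glycine for excretion, read 2835 to 3584 units in wild type and 1174 to 2397 in MCAD-/- mice. It was 1.69-fold lower (adjusted p = 0.00153), and all 3 of its probe sets passed. The list's 4 lower members became 2 without wild type LPS replicate 1 or without MCAD-/- LPS replicate 3.

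Peroxisomal and microsomal oxidation, which shortens very long and branched chains, showed 9 lower and 1 higher of 19 tested members (median -0.29). Aldh3a2, the fatty aldehyde dehydrogenase, read 92.0, 78.1, 66.0, 54.0 and 79.3 units in wild type and 24.3, 19.4, 18.1, 22.6 and 21.4 in MCAD-/- mice. The lowest wild type mouse was above the highest MCAD-/- mouse, and the fall was 3.46-fold (log2 -1.79 ± 0.18, adjusted p = 3.87e-07). Acot8, a peroxisomal thioesterase, was 2.08-fold lower (adjusted p = 0.000305) and Hacl1, the lyase of alpha-oxidation, 2.00-fold lower (adjusted p = 0.00511). Amacr, the racemase that prepares branched-chain acyl-CoAs and bile acid intermediates for oxidation, went the other way, from 239 to 366 units in wild type to 1335 to 2196 in MCAD-/- mice. Its 6.62-fold rise (adjusted p = 4.23e-11) stood beside a log2 difference of 2.86 with vehicle. The count of 9 lower members became 5 without wild type LPS replicate 2 or 5 or MCAD-/- LPS replicate 3 or 5, and 4 in a fit of the LPS groups alone.

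In ketone body metabolism 3 of 7 tested genes fell. Bdh1, the mitochondrial dehydrogenase that converts acetoacetate to beta-hydroxybutyrate, read 878, 1036, 561, 599 and 723 units in wild type and 225, 267, 128, 282 and 215 in MCAD-/- mice. The groups were well apart, and Bdh1 was 3.43-fold lower (log2 -1.78 ± 0.21, adjusted p = 3.3e-06). The difference with vehicle was -0.54 (adjusted p = 0.0812), and the interaction of -1.23 passed (adjusted p = 0.0187). The other members that fell, Bdh2 and Acat1, both lost their calls without wild type LPS replicate 1 or 2 or MCAD-/- LPS replicate 3.

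Of 15 tested fasting-induced targets of PPARalpha 6 fell and 9 did not pass (median -0.42). Vnn1, a pantetheinase that follows PPARalpha activity, read 331 to 745 units (median 446) in wild type and 101 to 322 (median 162) in MCAD-/- mice. It was 2.77-fold lower (log2 -1.47 ± 0.30, adjusted p = 0.00145), beside -1.57 with vehicle. Retsat, a retinol saturase, was 1.93-fold lower (adjusted p = 0.00222) and Creb3l3, the liver transcription factor that works with PPARalpha in fasting, 1.5-fold lower (adjusted p = 0.00287). Fgf21, the fasting hormone, was dim, at 12.8, 28.4, 7.27, 16 and 32.5 units in wild type and 3.75 to 5.96 in MCAD-/- mice. All 5 MCAD-/- mice were under the floor, so Fgf21 was at least 1.06-fold lower (adjusted p = 0.000655), and its interaction of -1.92 passed (adjusted p = 0.0309). Pdk4, the kinase that spares pyruvate in fasting, ranged from 37.1 to 528 units in wild type and from 20.8 to 237 in MCAD-/- mice and did not pass (log2 -1.26 ± 0.61, adjusted p = 0.158). Without wild type replicate 1 or MCAD-/- replicate 1 it passed (-1.75 each, adjusted p = 0.0435 and 0.0404).

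Genes of lipid droplets, the stores of triglyceride, held the largest fall of these lists after Acadm itself. Of 18 tested members 9 fell and 9 did not pass (median -0.52), and the lower count stayed between 8 and 11 in the alternatives run. Cidec, which fuses droplets into larger ones, read 436, 532, 361, 472 and 381 units in wild type and 42.1, 11.5, 20.1, 8.29 and 11.2 in MCAD-/- mice. Every wild type mouse exceeded every MCAD-/- mouse several-fold. The fitted fold of 27.8 rests on values under the floor (log2 -4.80 ± 0.31, adjusted p = 6.29e-10). With vehicle the difference was -0.48 (adjusted p = 0.341), and the interaction was -4.32 (adjusted p = 5.06e-06). All vehicle mice of both genotypes were under the floor, at 5.75 to 13.8 units, so no genotype difference with vehicle is read. Mgll, the lipase that completes triglyceride hydrolysis, read 283 to 764 units in wild type and 91.3 to 251 in MCAD-/- mice, 2.71-fold lower (adjusted p = 0.000414) with 3 of 3 probe sets past. Hsd17b11, a droplet-bound dehydrogenase, was 1.89-fold lower (adjusted p = 2.15e-05) and Fitm2, which helps droplets bud from the endoplasmic reticulum, 1.51-fold lower (adjusted p = 0.000983). Both also passed the interaction (-0.74 and -0.60).

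Genes of glucose production moved in both directions. Of 24 tested genes of gluconeogenesis and its regulators 7 rose and 2 fell (median 0.22). Ppargc1a, the coactivator that drives gluconeogenic transcription, read 24.0, 8.01, 31.2, 28.2 and 39.3 units in wild type and 73.7, 77.2, 78.1, 98.5 and 86.6 in MCAD-/- mice. The groups did not overlap, all 5 of its probe sets passed, and the rise was 3.56-fold (log2 1.83 ± 0.33, adjusted p = 0.000493). The difference with vehicle was 1.75 and the interaction did not pass (0.08). Got1, the cytosolic aspartate aminotransferase that shuttles carbon for gluconeogenesis, rose 3.51-fold, from 520 to 1502 units to 2144 to 4601 (adjusted p = 4.23e-05).

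The transporters that release glucose were the members that fell. Slc2a2, the GLUT2 glucose transporter of hepatocytes, read 90.9, 91.7, 42.8, 43.9 and 88.7 units in wild type and 35.1, 36.9, 24.7, 17.2 and 26.2 in MCAD-/- mice. The lowest wild type mouse was above the highest MCAD-/- mouse, and the fall was 2.49-fold (log2 -1.32 ± 0.23, adjusted p = 0.000383). Slc37a4, which carries glucose 6-phosphate to the phosphatase in the endoplasmic reticulum, was 1.44-fold lower (adjusted p = 0.00266). G6pc, the catalytic subunit of that phosphatase, read 375, 271, 154, 314 and 427 units in wild type and 348, 146, 22.6, 443 and 36.2 in MCAD-/- mice. MCAD-/- replicates 1 and 4 lay within the wild type range and replicates 3 and 5 far below it, and G6pc did not pass (log2 -1.37 ± 0.59, adjusted p = 0.109). Without MCAD-/- replicate 1 it passed at -1.77 (adjusted p = 0.0392) and without replicate 4 at -1.86 (adjusted p = 0.0207).

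For Pck1, Fbp1 and Pcx the differences were under 1.5-fold. Pck1, which commits oxaloacetate to gluconeogenesis, was 1.31-fold higher (log2 0.39 ± 0.13, adjusted p = 0.0404). Fbp1, the fructose bisphosphatase, was 1.18-fold higher (adjusted p = 0.0457) and did not overlap between the groups. The Fbp1 call ended whichever of the 10 mice was left out (adjusted p 0.0548 to 0.0931), and that of Pck1 ended for 8 of them, all but wild type replicate 5 and MCAD-/- replicate 3 (0.055 to 0.0962). Pcx, pyruvate carboxylase, differed by 0.11 (95% confidence interval -0.10 to 0.33, adjusted p = 0.474), though its interaction of 0.62 passed (adjusted p = 0.0187), beside a difference with vehicle of -0.51. The count of 7 higher members became 4 without wild type replicate 2 or 3 or MCAD-/- replicate 2, 4 or 5, and 3 without MCAD-/- replicate 1. The count of 2 lower members became 4 without MCAD-/- replicate 4.

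Glycogen genes were split: of 16 tested members 4 rose and 3 fell (median 0.05). Gys2, the liver glycogen synthase, read 491, 340, 233, 351 and 452 units in wild type and 239, 198, 113, 256 and 179 in MCAD-/- mice. It was 1.90-fold lower (log2 -0.93 ± 0.20, adjusted p = 0.00238), wild type replicate 3 lay inside the MCAD-/- range, and the interaction of -1.22 passed (adjusted p = 0.0173). Stbd1, which tethers glycogen to membranes for breakdown in lysosomes, rose 3.27-fold, from 198 to 466 units to 784 to 1219 (adjusted p = 1.01e-05). Pgm1, which interconverts the glucose phosphates on either side of glycogen, rose 1.47-fold (adjusted p = 0.000309) and Ppp1r3b, which targets the phosphatase to glycogen, 1.65-fold (adjusted p = 0.0118). Pygl, the liver phosphorylase, differed by -0.29 (95% confidence interval -0.62 to 0.03) and did not pass (adjusted p = 0.198). With array weights Pygl passed at -0.46 (adjusted p = 0.0303). The 3 lower members became 1 without wild type replicate 1 or MCAD-/- replicate 1.

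Glycolysis and sugar-responsive genes moved little as lists. Of 15 tested glycolytic genes and pyruvate dehydrogenase kinases 2 rose and 1 fell, a share of 20.0%, near the 20.6% of all genes. The higher count became 6 without MCAD-/- replicate 1, 4 without wild type replicate 3 and 1 without wild type replicate 2 or 5 or MCAD-/- replicate 3. Slc2a1, the GLUT1 transporter, read 193 to 237 units in wild type and 267, 316, 644, 369 and 356 in MCAD-/- mice. MCAD-/- replicate 3 was far above the rest, all 5 exceeded wild type, and the rise was 1.79-fold (adjusted p = 0.000998). Pklr, the liver pyruvate kinase, missed the threshold (log2 -0.94 ± 0.34, adjusted p = 0.0531). Without MCAD-/- replicate 5 (45.4 units) or wild type replicate 3 it passed at -1.28 and -1.19. It also passed with the replicate number as a block (adjusted p = 0.037), a trended and robust prior (0.0498) or array weights (0.023). In the list of sugar-responsive genes and their factor ChREBP, 2 of 10 tested members fell. Tkfc, the triose kinase of fructose use, fell 2.84-fold (adjusted p = 0.00562). Rgs16, a regulator of G protein signalling, fell at least 1.26-fold (adjusted p = 0.000225).

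**Figure D3:**
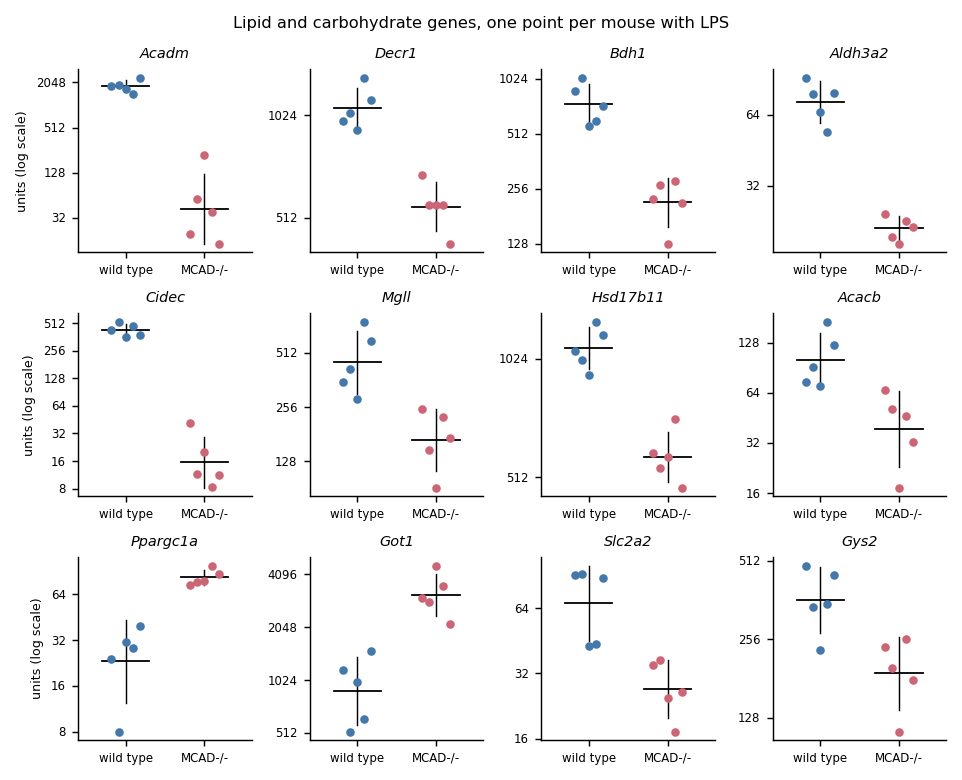
Intensity units on log scales for 12 genes of lipid and carbohydrate metabolism in wild type and MCAD-/- mice with LPS; each point is a mouse, horizontal lines are means of log2 values and vertical lines 1 SD (n = 5). The MCAD-/- points of Cidec (8.29 to 42.1) and Bdh1 (128 to 282) lie below all wild type points, those of Ppargc1a (73.7 to 98.5) and Got1 lie above, and the groups overlap for Gys2.

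Other mitochondrial lists were examined next. Of 24 tested citric acid cycle and pyruvate dehydrogenase genes 5 rose and 2 fell (median 0.01). Dlat, the acetyltransferase core of pyruvate dehydrogenase, read 33.7, 21.2, 14.9, 16.1 and 35.2 units in wild type and 74.0, 87.9, 87.0, 72.3 and 58.0 in MCAD-/- mice. The groups did not overlap, all 3 probe sets passed, and the rise was 3.30-fold (log2 1.72 ± 0.20, adjusted p = 2.54e-06) with an interaction of 1.04 (adjusted p = 0.0361). Pdpr, the regulatory subunit of the activating phosphatase, rose 1.70-fold (adjusted p = 0.01), and Fh1, fumarase, 1.25-fold (adjusted p = 0.00922). The 2 lower members, Cs and Suclg1, both lost their calls without wild type LPS replicate 2.

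Of 39 tested subunits of oxidative phosphorylation 0 passed in the limma model, and 2 had an unadjusted p under 0.05, both lower. Their log2 changes lay between -0.27 and 0.19 (median -0.02). In the alternatives at most 2 fell and 1 rose. Of 38 tested mitochondrial ribosomal proteins 2 passed, both lower.

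Among 23 tested mitochondrial carriers 3 rose and 3 fell, a share of 26.1% beside 20.6% of all genes. Slc25a51, which imports NAD+ into mitochondria, read 239, 148, 328, 259 and 216 units in wild type and 1113, 945, 1333, 1017 and 1221 in MCAD-/- mice. Every MCAD-/- mouse was far above every wild type mouse, a 4.85-fold rise (log2 2.28 ± 0.17, adjusted p = 7.1e-09) with 3 of 3 probe sets past and an interaction of 1.39. Slc25a47, a liver-specific carrier, fell 1.71-fold, from 4642 to 5953 units to 2638 to 3644 (adjusted p = 5.96e-06). Slc25a45, a carrier of the same family, fell 2.40-fold (adjusted p = 0.000603), and Slc25a37, which brings iron into mitochondria, 1.66-fold (adjusted p = 0.00879).

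Some genes of fatty acid synthesis fell. Of 21 tested genes of fatty acid synthesis 6 fell and 15 did not pass, and 19 of the 21 log2 changes were negative (median -0.50). Acacb, the acetyl-CoA carboxylase whose product blocks Cpt1a, read 74.6, 91.9, 70.4, 171 and 123 units in wild type and 66.3, 50.9, 17.2, 46.6 and 32.3 in MCAD-/- mice. The groups came close without overlap, and Acacb was 2.59-fold lower (adjusted p = 0.00269). Acss2, which activates acetate, was 2.02-fold lower (adjusted p = 0.000763) and Elovl2, an elongase of polyunsaturated fatty acids, 1.61-fold lower (adjusted p = 0.00455). Gpam, the acyltransferase that starts glycerolipid synthesis, was 1.80-fold lower (adjusted p = 0.00127), a call that ended with the mean of its probe sets (adjusted p = 0.0872). Of 20 tested genes of cholesterol synthesis only Sc5d, the sterol desaturase, passed, 2.01-fold higher (adjusted p = 0.000171). Just 1 of its 3 probe sets rose, and the mean of the probe sets gave 0.30 (adjusted p = 0.238).

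Lipoprotein genes moved in both directions, with the largest difference in a bright gene. Of 21 tested members 3 rose and 4 fell (median -0.07). Apoa4, an apolipoprotein that the fasted and steatotic liver makes, read 10034, 9950, 9254, 10278 and 9273 units in wild type and 1332, 908, 1309, 2989 and 1226 in MCAD-/- mice. The wild type mice lay close together, far above the MCAD-/- mice, and Apoa4 was 6.86-fold lower (log2 -2.78 ± 0.20, adjusted p = 1.99e-09). With vehicle the difference was -2.59, and the interaction did not pass (-0.19). Apobec1, the deaminase that edits the Apob transcript, was 5.24-fold lower, from 99.6 to 230 units to 20.4 to 54.9 (adjusted p = 1.61e-06). Apoc4 was 1.42-fold lower (adjusted p = 0.00187). Abca1, the cholesterol exporter, was 1.43-fold higher (adjusted p = 0.00313), a call that ended with the mean of its probe sets (adjusted p = 0.267).

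Of 21 tested bile acid genes 7 fell, 1 rose and 13 did not pass (median -0.38). Nr0b2, the orphan receptor SHP that represses bile acid synthesis, read 151, 291, 77.2, 191 and 83.3 units in wild type and 11, 25, 4.32, 70.3 and 12.2 in MCAD-/- mice. MCAD-/- replicate 4 came near the wild type range and the others lay far below. The fold of 8.82 rests on values under the floor (log2 -3.14 ± 0.55, adjusted p = 0.000408), and the interaction was -3.31 (adjusted p = 0.0187). Abcb4, the phospholipid exporter of the bile canaliculus, was 2.88-fold lower, from 451 to 595 units to 108 to 287 (adjusted p = 4.63e-06). Slc27a5, which activates bile acids for conjugation, was 1.4-fold lower (adjusted p = 0.00261). Abcg5, a subunit of the canalicular sterol exporter, was the member that rose, 2.30-fold, from 106 to 161 units to 250 to 443 (adjusted p = 4.46e-06; interaction 1.23). The 7 lower members became 4 without wild type LPS replicate 1 or MCAD-/- LPS replicate 3.

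Detoxification genes differed by list. Of 32 tested cytochrome P450 genes of families 1 to 4, 6 fell and 1 rose, a share of 21.9% near the 20.6% of all genes. Of 25 tested conjugation enzymes 5 rose and 6 fell, a share of 44.0%. Nr1i3, the constitutive androstane receptor CAR, read 72.2, 148, 49.4, 97.3 and 186 units in wild type and 47.3, 27.3, 5.46, 50.7 and 23.4 in MCAD-/- mice. It was 4.09-fold lower (adjusted p = 0.0027), with MCAD-/- replicate 4 just above wild type replicate 3. Cyp2b10, the classical CAR target, was 5.61-fold lower (log2 -2.49 ± 0.45, adjusted p = 0.000562), and its difference with vehicle was -4.48. Cyp2d40 was 2.35-fold lower (adjusted p = 0.000215). In a fit of the LPS groups alone the 6 lower P450 genes became 3.

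Among the conjugation enzymes Ugt2b38, a glucuronosyltransferase, was under 6.42 units in all wild type mice or at that value, and read 463, 511, 349, 300 and 381 units in MCAD-/- mice. It was at least 24.6-fold higher (adjusted p = 1.73e-10), and its interaction of 2.19 passed (adjusted p = 0.0266). Ugt3a1 rose 6.01-fold (adjusted p = 2.58e-06), while Ugt2b35 fell 1.92-fold (adjusted p = 0.000352). Sult5a1, a sulfotransferase, read 116, 134, 131, 82.9 and 18.3 units in wild type and 12.0 to 16.9 in MCAD-/- mice, and its fold of 5.89 rests on values under the floor (adjusted p = 0.000354). The Ugt2b genes form a family of close paralogs, whose probe sets may share transcripts.

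Of 24 tested genes of NRF2, glutathione and the pentose phosphate pathway 3 were higher and 4 lower. Their share of 29.2% stood beside 20.6% of all genes. Gclc, the rate-limiting enzyme of glutathione synthesis, rose 1.80-fold, from 270 to 467 units to 542 to 779 (adjusted p = 0.000182; interaction 1.10). Hmox1, haem oxygenase 1, rose 2.40-fold (adjusted p = 0.00367), with MCAD-/- replicate 3 the highest at 241 units and the other 4 at 60.6 to 99.6. Osgin1, an oxidative stress-induced growth inhibitor, fell 2.78-fold (adjusted p = 0.00135) and Ephx1, microsomal epoxide hydrolase, 1.84-fold (adjusted p = 0.000958). Of 22 tested genes of iron and metal handling 2 rose and 1 fell. Tfrc, the transferrin receptor, rose 2.58-fold, from 120 to 288 units to 301 to 671 (adjusted p = 0.000369).

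Of 30 tested members of the urea cycle and amino acid catabolism 9 rose, 1 fell and 20 did not pass, against 8.75% and 11.8% of all genes (median 0.20). Asl, argininosuccinate lyase of the urea cycle, rose 1.38-fold without overlap (adjusted p = 0.0111). Ass1, the synthetase before it, is counted too, but its probe set was dim, at 6.17 to 14.2 units in wild type and 12.5 to 38.3 in MCAD-/- mice. All wild type mice were under the floor, the groups overlapped and Ass1 was at least 1.36-fold higher (adjusted p = 0.00344). Asl was named after its values were seen. Hal, histidase, read 745, 559, 730, 975 and 786 units in wild type and 2110, 1655, 1860, 1830 and 1376 in MCAD-/- mice. All MCAD-/- mice exceeded all wild type mice, and Hal was 2.34-fold higher (log2 1.23 ± 0.18, adjusted p = 4.77e-05). Cth, the gamma-lyase of cysteine synthesis, rose 2.98-fold (adjusted p = 0.000389), with MCAD-/- replicate 5 at 485 units inside the wild type range of 265 to 607. Ftcd, which passes the formimino group from histidine breakdown to folate, was the member that fell, 1.5-fold (adjusted p = 2.94e-05). The number of higher members stayed between 8 and 10 in the alternatives run, while the lower count became 3 without wild type replicate 3 or MCAD-/- replicate 4 and 2 without MCAD-/- replicate 5.

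Branched-chain amino acid oxidation, with 19 genes tested, showed 3 higher and 2 lower. Dbt, the core subunit of the branched-chain dehydrogenase, read 238, 249, 264, 198 and 241 units in wild type and 496, 550, 516, 658 and 496 in MCAD-/- mice. The groups were tight and far apart, a 2.28-fold rise (log2 1.19 ± 0.12, adjusted p = 3.68e-07) with an interaction of 0.92. Ivd, isovaleryl-CoA dehydrogenase, a relative of MCAD, rose 1.56-fold (adjusted p = 0.00561). Mccc1, a carboxylase subunit of leucine breakdown, fell 1.68-fold (adjusted p = 0.00024). The 2 lower members became 1 without wild type replicate 1, 2 or 5 or MCAD-/- replicate 3 or 5.

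In the growth hormone axis few genes passed. Ghr, the growth hormone receptor, was the only member to pass of 23 tested growth hormone axis and sex-biased liver genes. It was 1.58-fold lower (adjusted p = 0.00319), with MCAD-/- replicate 4 at 997 units inside the wild type range of 865 to 1269 and an interaction of -0.85. The other tested probe sets of Ghr did not pass (log2 -0.32 and -0.99, adjusted p over probe sets = 0.0825 and 0.182). Of 19 tested clock genes 4 rose and 2 fell. Per1, a core repressor that glucocorticoids also induce, read 41.6, 24.4, 33.1, 51.1 and 38.9 units in wild type and 89.4, 80.4, 85.5, 73.4 and 89.5 in MCAD-/- mice, a 2.27-fold rise without overlap (adjusted p = 9.14e-05). Rora, an activator of the clock loop, rose 1.53-fold (adjusted p = 0.0032). The 2 lower clock genes, Wee1 and Usp2, were fragile: neither passed without wild type replicate 1, 2 or 4 or MCAD-/- replicate 3 or 5.

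Stress programs differed in direction. Of 20 tested immediate early and feedback genes 4 rose and 16 did not pass, a share of 20.0% beside 8.75% higher over all genes. Of the 20 log2 changes 19 were positive (median 0.45). Btg2, an antiproliferative early gene, read 204, 164, 439, 178 and 196 units in wild type and 719, 534, 1627, 900 and 841 in MCAD-/- mice. The groups did not overlap, replicate 3 was highest in each, and Btg2 was 3.92-fold higher (log2 1.97 ± 0.44, adjusted p = 0.00326). Dusp1, the phosphatase that switches off p38 and JNK kinases and is induced by glucocorticoids and cAMP, read 226, 176, 273, 226 and 193 units in wild type and 435, 323, 527, 376 and 500 in MCAD-/- mice. It was 1.97-fold higher without overlap (adjusted p = 0.000336). Sgk1, a glucocorticoid-induced kinase, was 1.66-fold higher (adjusted p = 0.00235). A separate list, the integrated stress response, had 2 of 17 tested members higher and 2 lower (median 0.08). Its share of 23.5% was near the 20.6% of all genes. Ppp1r15a, which restores translation after stress, was 1.98-fold higher (adjusted p = 0.00549), with MCAD-/- replicate 3 at 109 units and the other 4 at 40.3 to 52.0. Vldlr rose too, from a mean under the floor (adjusted p = 0.0201), with MCAD-/- replicate 3 at 306 units and the other 4 at 21.2 to 62.6. Wild type mice read 6.39 to 51.3 units, and no value of Vldlr without that mouse is given. Chac1 (log2 -1.23, adjusted p = 0.0178) and Ddit3 (log2 -0.57, adjusted p = 0.0397) fell.

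The promoters of the early genes are shown because Dusp1 and Btg2, which both rose, hold the palindrome TGACGTCA, the letters of a full cAMP response element, in the 250 bases before the gene's start. Sequences are from RefSeq, build GRCm38.p6, 5′ to 3′ on the gene's strand, with the match in capitals. The Dusp1 window is chr17:26508473-26508722 on the minus strand and the Btg2 window chr1:134079156-134079405 on the minus strand.
Dusp1: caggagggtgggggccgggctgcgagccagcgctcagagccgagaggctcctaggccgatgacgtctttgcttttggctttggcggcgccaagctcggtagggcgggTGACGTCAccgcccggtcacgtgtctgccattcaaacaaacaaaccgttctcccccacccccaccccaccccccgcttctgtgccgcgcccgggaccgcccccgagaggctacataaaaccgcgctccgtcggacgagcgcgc
Btg2: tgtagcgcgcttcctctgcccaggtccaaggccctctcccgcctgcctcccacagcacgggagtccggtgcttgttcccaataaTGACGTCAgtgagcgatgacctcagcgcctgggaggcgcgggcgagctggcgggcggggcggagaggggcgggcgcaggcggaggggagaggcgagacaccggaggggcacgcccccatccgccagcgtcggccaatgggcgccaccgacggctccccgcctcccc
The match ends 135 bases before the start of Dusp1 and 158 bases before that of Btg2. Of the 20 tested immediate early and feedback genes 16 had a promoter sequence. The match was in 2 of the 4 that rose and in 0 of the 12 others. Over all 32851 promoter windows of this length 1.55% hold it (478 of 27025 genes, 1.77%). A match describes the letters and not a bound factor.

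Of 18 tested heat shock genes 7 fell and 11 did not pass (median -0.25), and the 7 became 3 in a fit of the LPS groups alone. Hsph1, a co-chaperone of Hsp70, read 1023, 874, 597, 739 and 497 units in wild type and 276, 380, 189, 559 and 232 in MCAD-/- mice. It was 2.38-fold lower (log2 -1.25 ± 0.24, adjusted p = 0.000919), with MCAD-/- replicate 4 inside the wild type range. Chordc1 and Dnajb1, co-chaperones of Hsp90 and Hsp70, were 1.47-fold and 1.48-fold lower (adjusted p = 0.00913 and 0.0142), and Dnajb1 did not pass in the LPS groups alone (adjusted p = 0.0544). Of 23 tested chaperones of the endoplasmic reticulum 1 rose and 1 fell. The latter, Hyou1, fell 2.13-fold, from 215 to 352 units to 98.7 to 148 (adjusted p = 8.31e-05).

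In a list of p53 targets, growth arrest and cell cycle genes, 14 members were tested. Of these 4 fell, 1, Btg2, rose and 9 did not pass (median -0.19). Phlda3, which p53 induces to inhibit Akt, read 86.3, 115, 97.9, 125 and 50.3 units in wild type and 16, 15.6, 28.8, 12.9 and 32.8 in MCAD-/- mice. All wild type mice exceeded all MCAD-/- mice, and Phlda3 was 4.58-fold lower (log2 -2.19 ± 0.25, adjusted p = 2.82e-06). Its difference with vehicle was 0.36, and the interaction of -2.55 passed (adjusted p = 0.000234). Ccng1, cyclin G1, was 1.81-fold lower with 3 of 3 probe sets past (adjusted p = 0.000337). Fas, the death receptor, was 1.86-fold lower (adjusted p = 0.000422) and Zmat3, an RNA-binding p53 target, 1.74-fold lower (adjusted p = 0.00111; interaction -0.89). The 4 lower members became 2 under the stricter filter of 64 units.

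Most genes of the acute phase program did not pass. Of 26 tested positive acute phase proteins 2 rose and 1 fell, a share of 11.5% that lies under the 20.6% of all genes (median 0.02). A2m, a broad protease inhibitor of plasma, was the exception in size. It read 501, 746, 542, 290 and 234 units in wild type and 8261, 6777, 7028, 6783 and 6150 in MCAD-/- mice. The MCAD-/- mice lay close together and far above wild type, a 16.4-fold rise (log2 4.04 ± 0.54, adjusted p = 1.78e-05). With vehicle the difference was 0.60 (adjusted p = 0.502), and the interaction was 3.43 (adjusted p = 0.0136). The vehicle mice of both genotypes were under the floor at 3.76 to 6.43 units, except MCAD-/- vehicle replicate 5 at 73.4. Il1rn, the antagonist of the interleukin 1 receptor, rose 3.75-fold, from 212 to 457 units to 838 to 1844, with 3 of 3 probe sets past (adjusted p = 0.000934). Of 23 tested secreted proteins that inflammation usually lowers 2 rose and 1 fell. The lower count became 5 without MCAD-/- replicate 4 and 2 without wild type replicate 3. Itih2, a heavy chain of the inter-alpha-trypsin inhibitor, rose 1.44-fold (adjusted p = 0.000805).

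As a list, targets of NF-kappaB stood near the background. Of 18 tested cytokines and NF-kappaB targets 2 rose and 2 fell, a share of 22.2% beside 20.6% of all genes. A further 13 members were under the floor in all 10 mice with LPS. Nfkbiz, a nuclear modulator of NF-kappaB, rose 1.84-fold, from 166 to 278 units to 298 to 559 (adjusted p = 0.000926). Tnfaip3, the A20 enzyme that ends NF-kappaB signalling, rose 1.55-fold, from 33.2 to 51.1 units to 54.0 to 72.9 (adjusted p = 0.00362). The 2 lower members, Il18 and Tnip1, both lost their calls without wild type replicate 1 or MCAD-/- replicate 1 or 2. Among 19 tested genes of the LPS receptor complex and its adaptors 2 fell: Tirap, the adaptor that brings MyD88 to the receptor, 1.70-fold (adjusted p = 0.0013), and Ikbkg, the NEMO subunit of the kinase complex, 1.44-fold (adjusted p = 0.00728).

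Of 11 tested chemokines 1 rose and 2 fell. Cxcl11, an interferon-induced attractant of T cells, read 72.1, 32.1, 57.7, 43.5 and 30.5 units in wild type and 7.35, 11.9, 6.75, 19.8 and 14 in MCAD-/- mice. No wild type mouse lay in the MCAD-/- range, the fold of 4.05 rests on values under the floor (adjusted p = 4.95e-05), and the interaction of -2.28 passed (adjusted p = 0.00296). Cxcl13, a B cell attractant, was 3.77-fold higher (adjusted p = 0.00058), a smaller difference than with vehicle (4.03 on the log2 scale; interaction -2.11). Ccl9 was 1.5-fold lower (adjusted p = 0.00583), with MCAD-/- replicate 5 at 686 units above wild type replicate 4 at 681.

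Of 33 tested antiviral effectors of interferon 11 fell, 1 rose and 21 did not pass, and 28 of the 33 log2 changes were negative (median -0.36). Ifi35 read 1513, 1457, 1507, 1771 and 1240 units in wild type and 719, 827, 830, 710 and 1129 in MCAD-/- mice. The groups did not overlap, MCAD-/- replicate 5 came nearest to wild type, and Ifi35 was 1.79-fold lower (log2 -0.84 ± 0.13, adjusted p = 7.26e-05) with 3 of 3 probe sets past. Oas1a, the synthase that activates RNase L, read 897, 694, 769, 1151 and 423 units in wild type and 258, 359, 283, 369 and 328 in MCAD-/- mice, 2.36-fold lower (adjusted p = 0.00201). Parp9, a partner in interferon signalling, was 1.49-fold lower (adjusted p = 0.00266). The exception was Rsad2 (viperin), named here after its values were seen, which read 101, 83.8, 58.5, 151 and 68.5 units in wild type and 120, 169, 221, 263 and 191 in MCAD-/- mice and rose 2.13-fold with overlap (adjusted p = 0.00635). The count of 11 became 6 without MCAD-/- LPS replicate 1 and 7 without MCAD-/- LPS replicate 2 or wild type LPS replicate 1.

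Xaf1, a pro-apoptotic interferon target, is counted among the 11, but its 2 probe sets disagreed. The brighter read 580 to 853 units in wild type and 6.37 to 8.73 in MCAD-/- mice, at least 44.1-fold lower (log2 -6.61 ± 0.17, adjusted p = 8.26e-17). The other averaged 15.1 units in wild type and 379 in MCAD-/- mice (log2 4.66, adjusted p over probe sets = 2.84e-12), so the direction of the whole gene cannot be read from them. Opposite calls of this kind occurred in 19 of the 693 called genes with several tested probe sets.

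Of 11 tested interferon-induced GTPases, which attack pathogen vacuoles, 1 fell and 10 did not pass, and 10 of the 11 log2 changes were negative (median -0.28). At an unadjusted p under 0.05, 2 were lower. Igtp, the member that fell, read 799, 827, 979, 848 and 589 units in wild type and 418, 446, 283, 553 and 752 in MCAD-/- mice, 1.71-fold lower (adjusted p = 0.00833). MCAD-/- replicate 5 lay inside the wild type range, and the difference with vehicle was -1.5.

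Promoters of the interferon genes are shown because GAAA followed by any 2 bases and a second GAAA, the core of an interferon-stimulated response element, occurs both in genes that fell and in one that rose. The matches, on either strand and overlapping where they do, are in capitals, and the sequences are again the 250 bases before the start, from RefSeq, GRCm38.p6. The windows are chr5:120907526-120907775 on the minus strand (Oas1a), chr11:58199306-58199555 on the plus strand (Igtp) and chr12:26456453-26456702 on the minus strand (Rsad2).
Oas1a: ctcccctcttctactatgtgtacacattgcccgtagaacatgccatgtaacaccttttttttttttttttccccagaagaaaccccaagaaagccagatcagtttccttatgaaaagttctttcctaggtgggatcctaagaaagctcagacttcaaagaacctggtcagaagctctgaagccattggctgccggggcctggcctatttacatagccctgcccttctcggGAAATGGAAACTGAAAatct
Igtp: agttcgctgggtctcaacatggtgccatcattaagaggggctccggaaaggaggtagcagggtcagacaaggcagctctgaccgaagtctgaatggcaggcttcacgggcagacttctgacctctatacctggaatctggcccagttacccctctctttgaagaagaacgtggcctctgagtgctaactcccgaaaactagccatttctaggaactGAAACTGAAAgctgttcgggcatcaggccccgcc
Rsad2: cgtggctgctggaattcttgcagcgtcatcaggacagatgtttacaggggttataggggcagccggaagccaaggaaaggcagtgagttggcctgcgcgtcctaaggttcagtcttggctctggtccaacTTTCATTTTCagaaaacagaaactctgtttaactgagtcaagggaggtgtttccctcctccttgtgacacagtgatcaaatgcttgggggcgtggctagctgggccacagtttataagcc
Oas1a held 2 overlapping matches that end 4 bases before its start, Igtp 1 match at 24 bases and Rsad2 1 match, on the other strand, at 110 bases. Of the antiviral effectors with a promoter sequence, 7 of 24 held a match: 2 of the 7 that fell, the 1 that rose and 4 of the 16 that did not pass. Of the GTPases it was 7 of 8, Igtp and 6 that did not pass. Over all 32851 windows the share was 2.98% (936 of 27025 genes, 3.46%). The matches are a description of sequence and no sign of binding.

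The shares of other immune lists lay under the 20.6% of all genes. Of 18 tested genes of antigen presentation 1 rose and 1 fell (11.1%), and of 36 complement and coagulation genes 2 rose and 2 fell (11.1%). Of 19 genes of JAK-STAT feedback 2 rose and 1 fell (15.8%). The 2 lower complement genes became 6 without MCAD-/- replicate 4 and 1 without MCAD-/- replicate 3, and the 2 higher became 4 without wild type replicate 1. Pros1, protein S, an anticoagulant, rose 1.57-fold (adjusted p = 0.000714). Ptpn2, a phosphatase that restrains JAK and STAT proteins, rose 1.57-fold, with 3 of 3 probe sets past (adjusted p = 0.00709). Of 14 tested genes of inflammasomes and cell death 2 rose (14.3%). Casp4, the caspase that senses cytosolic LPS, was under 9.22 units or at that value in all wild type mice and read 37.6, 26.1, 27.2, 38.5 and 40.2 units in MCAD-/- mice, at least 2.08-fold higher (adjusted p = 7.46e-09; interaction 1.14). Bid, which links caspases to mitochondria, rose 3.33-fold (adjusted p = 1.98e-05), with a log2 difference of 2.04 with vehicle.

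**Figure D4:**
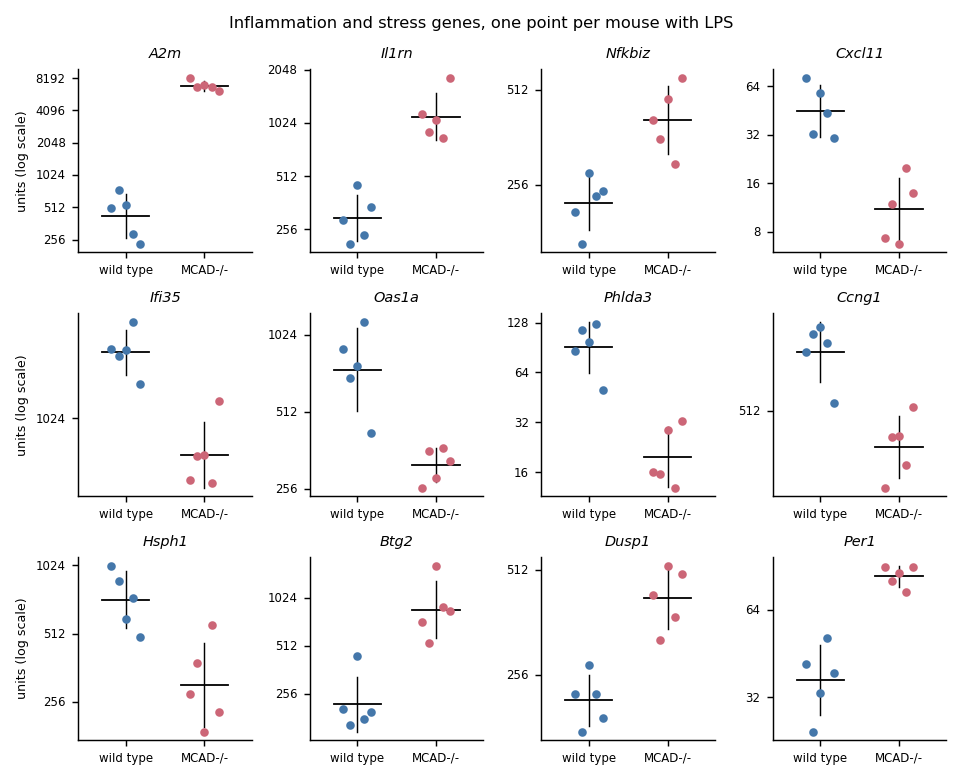
Intensity units on log scales for 12 genes of inflammation and stress in wild type and MCAD-/- mice with LPS; each point is a mouse, horizontal lines are means of log2 values and vertical lines 1 SD (n = 5). All MCAD-/- points of A2m (6150 to 8261) and Il1rn (838 to 1844) lie above wild type, all those of Phlda3 (12.9 to 32.8) and Cxcl11 (6.75 to 19.8) lie below, and the groups overlap for Hsph1.

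With LPS, 20.0% of hepatocyte and 22.2% of stellate cell and matrix markers passed between the genotypes, near the 20.6% of all genes. The shares were lower for endothelial markers (11.1%) and for Kupffer cell and macrophage markers (6.25%). The mean log2 level of 10 hepatocyte markers lay between 11.46 and 11.85 (wild type) and between 11.73 and 12.07 (MCAD-/-). Of the 10, 2 rose (median 0.02), among them Ass1 with its dim probe set. Of 18 tested endothelial markers 2 fell (median -0.16), of 16 Kupffer cell and macrophage markers 1 rose (0.19), and of 18 stellate cell and matrix markers 3 fell and 1 rose (0.24). Stab2, the hyaluronan scavenger of sinusoidal endothelium, read 335 to 571 units in wild type and 148 to 294 in MCAD-/- mice, 1.79-fold lower (adjusted p = 0.0105). Pdgfrb, the growth factor receptor of stellate cells, was 1.64-fold lower (adjusted p = 0.0176); without MCAD-/- replicate 3 or 5 it did not pass (adjusted p = 0.0549 and 0.055). The 3 lower stellate markers became 0 without MCAD-/- replicate 3 and 1 without wild type replicate 1 or MCAD-/- replicate 5. The 2 lower endothelial markers became 4 without wild type replicate 3 and 1 without any of wild type replicates 1, 2 and 5 or MCAD-/- replicates 2, 3 and 5. The higher Kupffer marker count ranged from 0 to 3, with 3 without wild type replicate 1.

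With vehicle, in other mice, the same lists were higher in MCAD-/- liver: 16 of 18 endothelial (median 1.15), 10 of 16 Kupffer (0.88) and 10 of 18 stellate markers (0.76) passed. The interaction passed for 9 of the 18 endothelial markers, all toward lower levels with LPS, among them Stab2 (-1.46), and for 2 stellate markers, among them Pdgfrb (-1.63). The mean log2 level of endothelial markers lay at 5.17 to 5.99 for wild type and at 4.95 to 5.81 for MCAD-/- mice with LPS, and 5.38 to 6.32 and 6.81 to 7.36 with vehicle. The part of these cell markers in the interactions of other genes was not tested.

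Of the 7 tested neutrophil markers 1 rose (median 0.32). Lymphocyte markers (13 of 14 under the floor in all 10 LPS mice), kidney markers (7 of 7 with a probe set), cholangiocyte markers (8 of 9) and pancreatic acinar markers (8 of 9) had these members under the floor. Tff3, a trefoil factor of bile duct and gut epithelium and the cholangiocyte marker that was tested, was under 6.76 units or at that value in wild type and read 14.7 to 61.8 units in MCAD-/- mice. It was at least 1.48-fold higher (adjusted p = 5.97e-05), and its log2 difference with vehicle was 4.42. Unc45b, a myosin chaperone of striated muscle, was under 7.07 units or at that value in wild type and read 117, 91.1, 228, 77.3 and 152 units in MCAD-/- mice, at least 7.72-fold higher (adjusted p = 3.62e-11). Of the 12 muscle markers 2 were tested, 1 higher and 1 lower, and 5 were under the floor in all mice with LPS, and the part of other tissue in the Unc45b value was not tested.

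**Figure D5:**
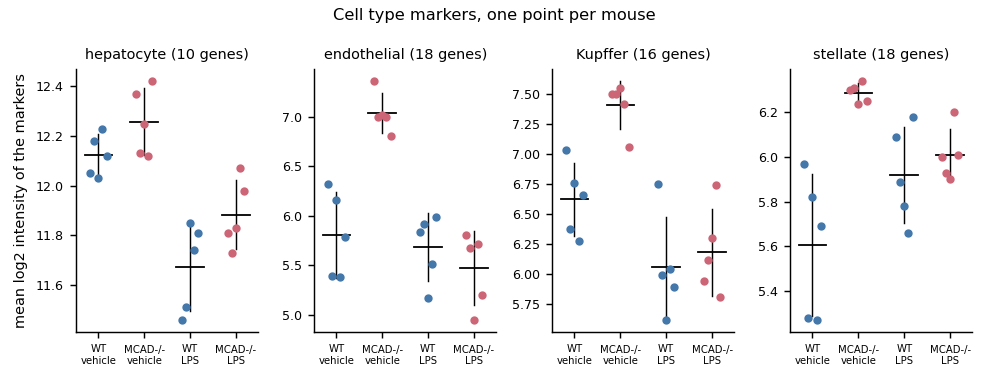
Mean log2 intensity of the tested markers of 4 liver cell types in each mouse (number of genes in parentheses), by genotype and injection; horizontal lines are group means and vertical lines 1 SD (n = 5). With LPS the genotypes overlap for endothelial, Kupffer and stellate markers, while with vehicle all MCAD-/- mice lie above wild type for these 3 lists.

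Genes outside the lists make up most of those with the largest fitted changes and separated groups. By log2 difference, which counts values under the floor as measured, the 10 largest rises were Ugt2b38, Olig1, Rpgrip1, Acpp, Unc45b, Efhd2, A2m, Tmem267, Fam47e and Slc6a16. Olig1, a transcription factor of oligodendrocytes, read 9.53, 2.59, 9.31, 13.5 and 37.7 units in wild type and 794, 471, 1234, 239 and 560 in MCAD-/- mice. The fold of 55.5 rests on values under the floor (adjusted p = 3.83e-08), the difference with vehicle was 0.39 (adjusted p = 0.658) and the interaction was 5.40 (adjusted p = 9.17e-05). All vehicle mice were under the floor, at 2.9 to 6.97 units, so no difference of Olig1 with vehicle is read. Acpp, an acid phosphatase, read 8.88 to 20.8 units in wild type and 177 to 410 in MCAD-/- mice, a 24.4-fold rise that rests on values under the floor (adjusted p = 9.65e-10; interaction 2.98). Efhd2, a calcium-binding protein of immune cells, rose 17.8-fold from a measurable level, 46.7 to 114 units, to 1113 to 1612 (log2 4.15 ± 0.19, adjusted p = 3.36e-12). Its other probe set differed far less, at 198 units in wild type and 275 in MCAD-/- mice (log2 0.47, adjusted p over probe sets = 0.0486).

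Other rises are given beside their vehicle differences. Rpgrip1, a ciliary protein, was at least 16.5-fold higher with LPS (231 to 299 units against 6.02 to 13), with a log2 difference of 5.07 beside 5.12 with vehicle. Tmem267 was at least 4.28-fold higher (log2 3.71 beside 3.99 with vehicle), and Fam47e 12.7-fold higher with wild type values mostly under the floor (3.66 beside 4.15). As folds above the floor, Tmem267 and Slc6a16 fall below the measured rises of Amacr (6.62-fold), Ugt3a1 (6.01-fold) and Slc25a51 (4.85-fold). Slc6a16, an orphan transporter, was at least 2.96-fold higher (3.51 beside 1.78; interaction 1.73).

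By the same measure the 10 largest falls were Xaf1, Gm7969, Zfp874a, Acadm, Cap1, Cidec, Abhd1, Gm2788, Lnx1 and Dntt. Gm7969, a predicted gene, read 212 to 261 units in all wild type mice and 2.27 to 2.9 in all MCAD-/- mice, at least 15.2-fold lower (adjusted p = 4.38e-20), with both probe sets past. Zfp874a, a zinc finger gene, was at least 17.7-fold lower (adjusted p = 8.26e-17), Cap1, an actin regulator, at least 15.5-fold (adjusted p = 1.54e-13) and Abhd1 at least 10.4-fold (adjusted p = 5.29e-13). Lnx1, a ubiquitin ligase, was at least 5.65-fold lower (adjusted p = 2.61e-10). These 5 genes had vehicle differences of -5.51, -5.41, -4.96, -4.67 and -4.37.

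Dntt and Gm2788 are described separately. Dntt, terminal transferase of lymphocyte precursors, read 89.1, 147, 68.4, 105 and 17.7 units in wild type and 4.70 to 9.64 in MCAD-/- mice. It was at least 4.37-fold lower (adjusted p = 1.84e-06), with a vehicle difference of -0.52 and an interaction of -2.89. All vehicle mice were under the floor for Dntt, at 3.11 to 6.02 units, so no difference with vehicle is read. Gm2788 split within MCAD-/-, at 246, 250, 5.19, 6.12 and 183 units against 463 to 796 in wild type. It was 12.1-fold lower (adjusted p = 0.023), and the call ended without MCAD-/- replicate 3 or 4 (adjusted p = 0.0742 and 0.0642). With array weights the call of Gm2788 ended too (adjusted p = 0.0717). Its vehicle difference was -4.85 (adjusted p = 0.00387), and its interaction did not pass (1.25, adjusted p = 0.7). MCAD-/- mice with vehicle were also split, at 3.41, 4.36, 75.5, 3.65 and 82.7 units.

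The naming rule took the 5 smallest interaction p among genes past the threshold with LPS: Lrit1, Xaf1, Fam107a, Mme and B3galt1. For 3 of them all 10 LPS mice were under the floor, so no difference with LPS is read; they were above it only in wild type mice with vehicle. Lrit1, a leucine-rich repeat membrane protein, read 49.4 to 99.5 units in wild type with vehicle and 3.20 to 7.58 in both genotypes with LPS, an interaction of 3.22 (adjusted p = 5.35e-08). Mme, the peptidase neprilysin, read 33.5 to 68.4 units in wild type with vehicle and 2.39 to 7.04 in both genotypes with LPS (interaction 2.78). Fam107a read 62.4 to 94.7 units in wild type with vehicle and 4.38 to 9.10 with LPS (interaction 2.61). The calls of Lrit1 and Mme with LPS ended with a pseudocount of 16 units (adjusted p = 0.195 and 0.259), and that of Fam107a ended in 15 of 18 alternatives, among them 8 that left out a mouse (wild type replicate 1, 2, 4 or 5 or MCAD-/- replicate 1, 2, 4 or 5).

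B3galt1, a galactosyltransferase, was higher with LPS (1.80-fold, adjusted p = 0.00475) and lower with vehicle (log2 -2.02), an interaction of 2.86 (adjusted p = 3.04e-06). Of its 5 tested probe sets 1 passed, and with their mean the difference with LPS was 0.24 (adjusted p = 0.626). Of the 235 genes that passed both with LPS and for the interaction, 195 had the larger difference with LPS.

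Genes near Acadm on chromosome 3 were examined because a mixed background can carry linked alleles with a knockout. Of the 28 nearest tested genes, at most 20 on each side, 6 passed with LPS (21.4%), beside 21.1% of the 445 other tested genes of the chromosome. Those with the largest differences were named after their values were seen, and none of the 3 passed the interaction (adjusted p = 0.756 for Ddah1, 0.663 for Ifi44l and 0.377 for Cth). Ddah1, a dimethylarginine hydrolase 19 tested genes away, was 4.54-fold lower (log2 -2.18 ± 0.31, adjusted p = 3.64e-05; -1.88 with vehicle). Ifi44l, an interferon target 7 away, was higher by 2.17 (adjusted p = 0.00107; 1.62 with vehicle), a fold that rests on values under the floor. Cth, described above with the amino acid genes, lies 5 away, and its vehicle difference was 0.93. The part of linked alleles in these values was not tested.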

How the data were processed

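Liver RNA of 20 mice was measured on 1 Affymetrix array each. The deposited values are linear intensities that the authors made with GCRMA, per the submitters' processing notes, which name no version. Of 45101 probe sets, 34945 carried a single gene symbol; 932 with several symbols and 9160 unlisted ones stayed unnamed here. For each of the 18193 genes the probe set with the highest mean was used. The 8774 genes above 16 units on at least 5 arrays were tested on log2 intensities in limma 3.58.1 under R 4.3.3, with 4 group means, two-sided tests, Benjamini-Hochberg adjustment over all genes tested and a threshold of 0.05. Errors are standard errors of this model, which was tested on simulated data, and the number of arrays limits the precision. A group mean under 16 units was raised to 16 for an "at least" fold when all 5 mice were under it.

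Genes named are the 10 largest rises and falls with separated groups, up to 4 members of each list (3 of each marker list) with the smallest adjusted p, a metabolic panel, and the 5 smallest interaction p. The members and lists were chosen with earlier results of these data known. Some members of the panel are not reported here. Alternatives changed the filter, probe set rule, scaling, pseudocount, prior, weights, groups fitted, replicate block and, for total counts only, the fold minimum. They also left out each of the 10 LPS mice, and no vehicle mouse was left out. Promoter sequences are from RefSeq (GRCm38.p6). No protein or genome sequence was used.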

Additional observations from a re-analysis of the deposited data

Results flagged for a closer look

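Single mice stood far from the other 4 of their group in 12 of 270 gene and group pairs examined, where chance gives about 1 in 20. Those far from their group in wild type were Pgm1 in wild type LPS replicate 5 at 386 units, Elovl2 in wild type LPS replicate 1 at 2729 units, Sult5a1 in wild type LPS replicate 5 at 18.3 units, Btg2 in wild type LPS replicate 3 at 439 units, Pdgfrb in wild type LPS replicate 1 at 51.3 units and Ifi44l in wild type LPS replicate 5 at 3.51 units. Those in MCAD-/- were Abcg5 in MCAD-/- LPS replicate 3 at 443 units, Cyp2d40 in MCAD-/- LPS replicate 3 at 14.6 units, Ephx1 in MCAD-/- LPS replicate 1 at 467 units, Ppp1r15a in MCAD-/- LPS replicate 3 at 109 units, Pck1 in MCAD-/- LPS replicate 3 at 4784 units and Pklr in MCAD-/- LPS replicate 5 at 45.4 units. MCAD-/- LPS replicate 3, the most distant array of its group, is the mouse in 4 of them.

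The genotype difference itself differed between LPS and vehicle, by the interaction in limma at an adjusted p of 0.05, for 44 of the genes named. Values are log2, the difference with LPS minus that with vehicle. It was negative for Cidec (-4.32), Nr0b2 (-3.31), Dntt (-2.89), Xaf1 (-2.68), Phlda3 (-2.55), Tff3 (-2.31), Cxcl11 (-2.28), Cxcl13 (-2.11) and Fgf21 (-1.92). Further negative values were those of Acsm5 (-1.81), Pdgfrb (-1.63), Aldh3a2 (-1.53), Stab2 (-1.46), Bdh1 (-1.23), Gys2 (-1.22), Abcb4 (-1.19), Gm7969 (-1.06) and Slc25a37 (-1.04). Further negative values were those of Zmat3 (-0.89), Gpam (-0.87), Ghr (-0.85), Hsd17b11 (-0.74), Ftcd (-0.65), Slc25a47 (-0.62) and Fitm2 (-0.60). It was positive for Olig1 (5.40), A2m (3.43), Lrit1 (3.22), Unc45b (3.14), Acpp (2.98), B3galt1 (2.86), Mme (2.78), Fam107a (2.61) and Ugt2b38 (2.19). Further positive values were those of Slc6a16 (1.73), Ugt3a1 (1.6), Slc25a51 (1.39), Abcg5 (1.23), Casp4 (1.14), Gclc (1.10), Dlat (1.04), Dbt (0.92) and Abca1 (0.62). Further positive values were those of Pcx (0.62). Xaf1 and B3galt1 have probe sets that disagree, and Lrit1, Fam107a and Mme were under the floor in all mice with LPS. Among the others, Cidec, Olig1 and Dntt were under the floor in all mice with vehicle.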

How the results depend on the processing

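With a minimum of 1.5-fold added to the adjusted p, 1100 genes passed with LPS, 468 higher and 632 lower. The interaction passed for 236 genes under the stricter filter and for 879 under array weights, against 361. Leaving out 1 of the 10 mice with LPS (no vehicle mouse was left out) gave 1371 to 1765 genes past, 572 to 775 higher and 799 to 1074 lower, 284 to 468 for the interaction, and -6.04 to -5.06 for Acadm. The fit of the LPS groups alone gave 1294. Centring each array on its median gave 875 higher and 947 lower, and quantile normalization 942 and 984. Of 2658 values of 134 named genes under alternatives, 2585 kept their side of the threshold, 63 lost the call, 10 gained it and 0 changed sign. The call held in every alternative fit for 117 of the 130 called genes in this count, many of them named for the smallest adjusted p of their list. Other called genes in the text are outside this count. Among them are Bdh2, Acat1, Cs, Suclg1, Il18, Tnip1, Wee1 and Usp2, whose calls ended in some fits. The fold minimum was applied to total counts only, not to single genes or lists. Some of the 130 called genes are under 1.5-fold, among them Fh1 (1.25-fold) and Slc27a5 (1.4-fold). Of 1100 list counts 940 stayed within 1.5 times.

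With the replicate number as a block 1845 genes passed, 1692 of them shared, and the interaction passed for 384. Same-numbered mice correlated at -0.087, 0.27, 0.284, -0.089 and 0.131 in their deviations, and 3 of 5 were highest with their own number. The labels do not say that the numbers pair the mice, so the main fit did not pair them. Whether the numbers share a meaning was not tested. The cause of these shifts was not tested. Genes near 16 units are limited by signal over background.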
